A study of Mus musculus with 12 samples.

Results

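The genes described here are the peroxisome proliferator-activated receptors Ppara, Ppard and Pparg, the retinoid X receptors Rxra and Rxrg, the uncoupling proteins Ucp2 and Ucp3, and the lipid genes Angptl4, Plin2 and Plin5, measured in mouse gastrocnemius, a calf muscle of mostly fast fibres. Each of these 10 genes was followed by the brightest probeset that carries its symbol alone. That gave 9 measured genes of the 22180 on the array. Ucp2 is not analysed here, because it had no such probeset. All 9 were among the 13308 genes whose mean lay above the filter on low values, a log2 value of 5.32.

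RNA came from FVB mice labelled male, 2 to 3 months old, on Affymetrix Mouse Gene 2.0 ST arrays. There were 12 arrays, 3 for each of 4 groups: ERRα-null mice 2 h after an exhaustive treadmill run, wild type mice 2 h after the same run, sedentary ERRα-null mice, and sedentary wild type mice. ERRα, the product of Esrra, belongs to the orphan nuclear receptors and binds the control regions of many mitochondrial genes. The labels state only that the mice are null for it, with no further detail of the allele.

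PPARs are nuclear receptors that bind fatty acids and their derivatives. They act as pairs with an RXR, on DNA sites made of repeated copies of a hexamer related to AGGTCA. In muscle, PPARδ and PPARα are known for genes of fatty acid uptake and oxidation, of triglyceride storage and of mitochondrial uncoupling, and PPARγ is best known as the regulator of fat cells.

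Esrra had log2 values of 6.85, 6.58 and 6.73 in exercised ERRα-null muscle, against 7.47, 7.63 and 7.41 in exercised wild type muscle. It had 6.55, 6.89 and 6.68 in sedentary ERRα-null muscle, against 7.61, 7.57 and 7.41 in sedentary wild type muscle. All 6 ERRα-null arrays thus lay below all 6 wild type arrays, as the titles have it. Titles and source names disagree on the exercise state of sedentary ERRα-null and exercised wild type arrays, and titles were used. The mean of 7 heat shock chaperones, a check on exercise, was 8.68 to 9.17 in exercised ERRα-null muscle and 9.44 to 9.67 in exercised wild type muscle, against 7.59 to 7.81 in sedentary ERRα-null and 7.46 to 7.59 in sedentary wild type muscle.

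Markers of the tissue were high throughout: the mean of 10 skeletal muscle genes stayed between 12.93 and 13.05 on all 12 arrays. Some arrays stood apart. Ucp1, the uncoupling protein of brown fat, was above a log2 value of 9 on sedentary ERRα-null array 3 and on sedentary wild type arrays 2 and 3. Exercised ERRα-null arrays 2 and 3 and exercised wild type array 3 had more Xist than Eif2s3y, the female pattern, against their label. The mean of 8 liver markers was highest on sedentary wild type array 1, at 10.14, followed by 8.76 on sedentary ERRα-null array 2, and by 5.56 to 7.71 on the other arrays. That of 6 lymphocyte markers was 7.39 on sedentary ERRα-null array 1 and 6.57 and 6.48 on sedentary wild type arrays 2 and 3, and 4.74 to 5.02 elsewhere. Several results are given with and without the arrays of high Ucp1 or of the female pattern. The arrays high for liver or lymphocyte markers were not left out as sets of their own. In bulk muscle, fewer cells of a type and less RNA per cell cannot be told apart.

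Promoters of 2 genes are shown, because Ppard and Ucp3 were the genes called after exercise in the sections that follow. Both are RefSeq sequences of mouse assembly GRCm38.p6, 300 bases long, from 250 bases before the annotated start to 50 bases after it. The Ucp3 promoter lies at chr7:100472741-100473040 and the Ppard promoter at chr17:28232504-28232803, both on the plus strand. Capitals mark AGGTCA, the hexamer of nuclear receptor sites.
Ucp3: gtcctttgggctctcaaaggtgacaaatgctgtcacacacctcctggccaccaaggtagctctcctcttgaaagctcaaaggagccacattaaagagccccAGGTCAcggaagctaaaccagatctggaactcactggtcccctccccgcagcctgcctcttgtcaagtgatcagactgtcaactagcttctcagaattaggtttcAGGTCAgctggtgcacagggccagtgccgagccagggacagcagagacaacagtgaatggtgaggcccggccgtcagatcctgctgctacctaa
Ppard: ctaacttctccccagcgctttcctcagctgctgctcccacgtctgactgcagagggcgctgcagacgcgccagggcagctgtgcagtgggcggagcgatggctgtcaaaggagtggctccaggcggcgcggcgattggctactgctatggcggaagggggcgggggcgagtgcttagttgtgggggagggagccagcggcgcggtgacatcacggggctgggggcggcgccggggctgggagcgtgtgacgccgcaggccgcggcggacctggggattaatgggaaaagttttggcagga

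The Ucp3 window had AGGTCA at 149 and at 44 bases before the start, both on the printed strand. The Ppard window held no copy on either strand. Over all 32851 promoters of the same length, 16.3% held at least 1 copy on either strand and 1.81% held 2 or more. Neither window held TNAAGGTCA, the longer site known for ERR receptors, which contains AGGTCA and was found in 1.28% of all promoters. Neither held the PPAR-type repeat, searched as 2 copies of AGGNCA in the same direction with 1 base of any kind between them, found in 0.381% on either strand. The GC content was 55.0% for Ucp3 and 68.3% for Ppard. Among the other genes of the group, Pparg, Rxra, Rxrg, Plin2 and Plin5 had AGGTCA in at least 1 listed promoter and Ppara had none. Pparg, Rxra and Rxrg also had a listed promoter without it. Some of these genes have more than 1 listed promoter, so this count is not comparable with the share of promoters. Angptl4 was not searched. These matches describe letters in a window, and binding was not measured.

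Ucp3 and Ppard rose after exercise in wild type muscle, and none of the other 7 measured genes passed the test there. Tests here are from limma, fitted on all 4 groups, with Benjamini-Hochberg adjustment over all 13308 genes and a threshold of 0.05. The 2 genes called higher compare with 296 of 13308 genes called higher in that comparison, or 2.22%. The groups did not overlap for the same 2 of 9 genes, against 21% of all genes tested. The median log2 difference was 0.13 over the 9 genes and -0.01 over all genes.

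Ucp3, a mitochondrial carrier of muscle tied to fatty acid handling, had the largest change of the group. It had log2 values of 10.30, 10.32 and 9.98 in exercised wild type muscle, against 8.63, 8.74 and 8.59 in sedentary wild type muscle. In ERRα-null muscle it had 10.04, 9.89 and 9.89 after exercise, against 9.28, 9.56 and 8.82 in sedentary mice. In both genotypes every exercised array lay above every sedentary array.

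In wild type muscle Ucp3 rose by 1.54 ± 0.15 on the log2 scale (SE), which is 2.91-fold (limma, adjusted p = 0.000152). In ERRα-null muscle the difference was 0.72 ± 0.15, or 1.64-fold, and did not pass the test (limma, adjusted p = 0.0659). Averaged over the genotypes Ucp3 rose by 1.13 ± 0.11 (limma, adjusted p = 9.09e-05). The difference between the genotypes' exercise effects was -0.83 ± 0.22 and did not pass (limma, unadjusted p = 0.00262, adjusted p = 0.634), so a smaller response in ERRα-null muscle was not shown.

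The order of the Ucp3 group means was exercised wild type, exercised ERRα-null, sedentary ERRα-null and sedentary wild type. The means ± SD were 9.94 ± 0.09 in exercised ERRα-null muscle, 10.20 ± 0.19 in exercised wild type muscle, 9.22 ± 0.38 in sedentary ERRα-null muscle and 8.66 ± 0.08 in sedentary wild type muscle (n = 3 each). The exercised groups overlapped, and each other neighbouring pair did not. At rest the genotype difference of 0.57 ± 0.15 did not pass the test (limma, unadjusted p = 0.0033, adjusted p = 0.268), although all 3 ERRα-null arrays lay above all 3 wild type arrays. After exercise it was -0.26 ± 0.15 (adjusted p = 0.647).

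Ppard, which encodes PPARδ, had log2 values of 8.70, 8.67 and 8.74 in exercised wild type muscle, against 7.95, 7.92 and 8.10 in sedentary wild type muscle. In ERRα-null muscle it had 8.39, 8.28 and 8.43 after exercise, against 7.99, 8.10 and 7.86 in sedentary mice. The exercised and sedentary arrays were again fully apart in both genotypes.

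Ppard rose by 0.72 ± 0.08 in wild type muscle, or 1.64-fold (limma, adjusted p = 0.000446). The difference in ERRα-null muscle was 0.38 ± 0.08, or 1.30-fold, and did not pass (limma, adjusted p = 0.0665). The average over genotypes rose by 0.55 ± 0.06 (limma, adjusted p = 0.000193). As for Ucp3, the difference between the exercise effects did not pass, at -0.33 ± 0.12 (limma, unadjusted p = 0.0149, adjusted p = 0.933).

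At rest the Ppard means were nearly equal, at 7.98 ± 0.12 in ERRα-null muscle and 7.99 ± 0.09 in wild type muscle (SD, n = 3 each). After exercise they were 8.37 ± 0.08 in ERRα-null muscle and 8.71 ± 0.03 in wild type muscle (SD, n = 3 each). The 3 exercised ERRα-null arrays all lay below the 3 exercised wild type arrays, and the difference of -0.34 ± 0.08 did not pass (limma, unadjusted p = 0.00151, adjusted p = 0.112).

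The wild type calls held without the arrays of high Ucp1 and without those of the female pattern. Every sedentary wild type array stood apart in some markers, so dependence on such arrays as a whole could not be tested. Without the 3 arrays of high Ucp1, which leaves 1 sedentary wild type array whose spread is taken from the remaining groups, Ucp3 differed by 1.57 (limma, adjusted p = 0.00238) and Ppard by 0.76 (adjusted p = 0.0113). With the 3 arrays of the female pattern left out, so that exercised ERRα-null muscle has 1 array, Ucp3 differed by 1.65 (adjusted p = 0.00291) and Ppard by 0.70 (adjusted p = 0.0118). Both genes passed in wild type muscle under all 24 alternatives tried.

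The ERRα-null exercise differences lay close to the threshold. Over the 24 alternatives, Ppard passed in 3 and Ucp3 in 3. With array weights both passed, at 0.39 for Ppard (limma, adjusted p = 0.0253) and 0.64 for Ucp3 (adjusted p = 0.0494). Without sedentary ERRα-null array 2, which had the highest Ucp3 of its group, the Ucp3 difference was 0.89 (adjusted p = 0.0214). In that comparison 0 of the 9 genes were called with all arrays. By limma 2 had an unadjusted p under 0.05, against 13.1% of all genes. Of all genes tested, 85 were called in either direction, or 0.639%, and 19% had groups that did not overlap. Averaged over genotypes the same 2 of 9 genes were called higher, against 3.14% of all genes called higher.

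**Figure D1:**
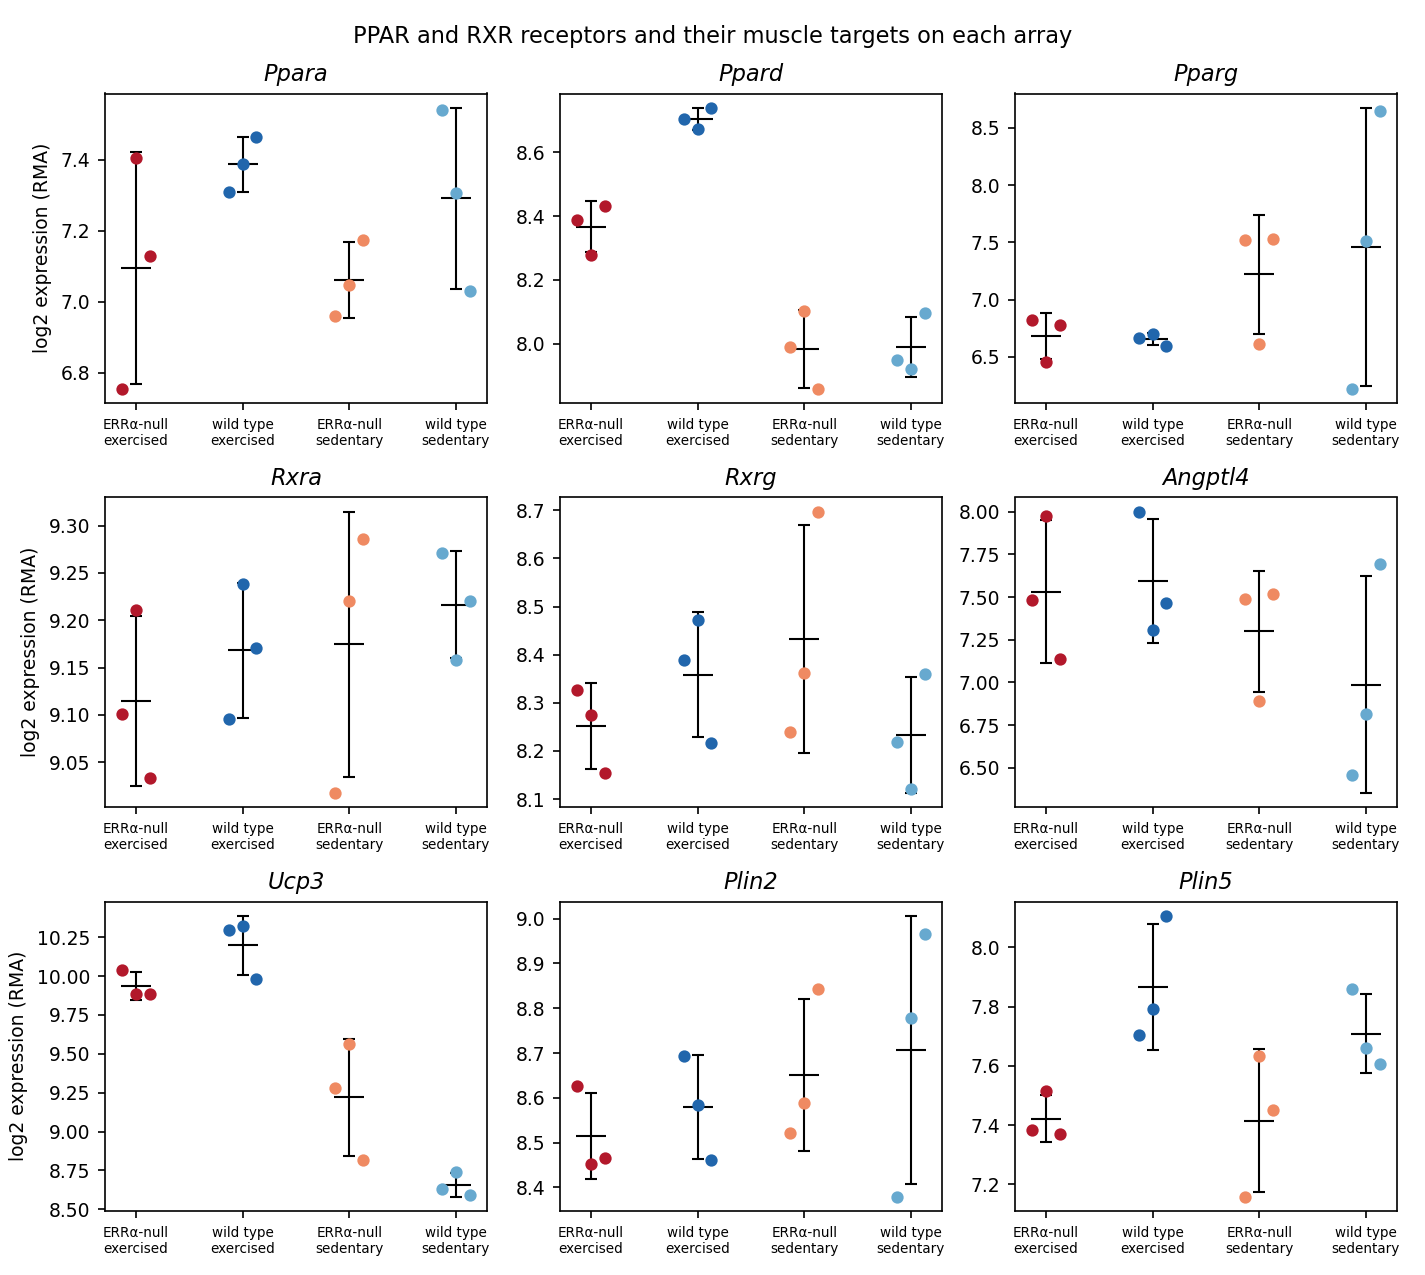
Log2 expression (RMA) of the 9 measured genes, 1 point per array and 3 arrays per group, with the mean and SD as bars. Each panel has its own scale that does not start at 0, and Ppard and Ucp3 show exercised arrays above all sedentary arrays in both genotypes.

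The other receptors did not pass the test for exercise. Ppara, which encodes the PPAR that controls fatty acid oxidation in liver and muscle, had 6.75, 7.40 and 7.13 in exercised ERRα-null muscle and 7.31, 7.39 and 7.46 in exercised wild type muscle. It had 6.96, 7.05 and 7.17 in sedentary ERRα-null muscle and 7.54, 7.31 and 7.03 in sedentary wild type muscle. All neighbouring group means overlapped. The difference in wild type muscle was 0.10 ± 0.16 (limma, adjusted p = 0.829), against 0.04 ± 0.16 in ERRα-null muscle (adjusted p = 0.947).

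Averaged over the states, Ppara was -0.26 ± 0.11 in ERRα-null relative to wild type muscle, which did not pass (limma, unadjusted p = 0.0379, adjusted p = 0.359). The highest Ppara value, 7.54, was on sedentary wild type array 1, the array with the highest liver marker mean. The array with the next highest liver marker mean, sedentary ERRα-null array 2, had 7.05. Without sedentary wild type array 1 the genotype difference of Ppara at rest was -0.11, against -0.23 with it, and passed in neither. The part of liver RNA in the Ppara values was not tested.

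Rxra encodes a common partner of the PPARs, and Rxrg encodes another, known for its expression in muscle. Rxra ranged from 9.02 to 9.29 over all 12 arrays, the narrowest range of the 9 genes, and Rxrg from 8.12 to 8.70. For Rxra the difference after exercise was -0.06 ± 0.08 in ERRα-null muscle and -0.05 ± 0.08 in wild type muscle (limma, adjusted p = 0.809 and 0.837). For Rxrg it was -0.18 ± 0.12 in ERRα-null muscle and 0.13 ± 0.12 in wild type muscle (limma, adjusted p = 0.550 and 0.657). The highest Rxrg value, 8.70, was on sedentary ERRα-null array 3, and the 4 groups overlapped for both genes.

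Pparg had 6.82, 6.46 and 6.78 in exercised ERRα-null muscle, against 7.52, 6.62 and 7.53 in sedentary ERRα-null muscle. It had 6.67, 6.70 and 6.60 in exercised wild type muscle, against 6.22, 7.51 and 8.65 in sedentary wild type muscle. The exercised arrays lay close together and inside the span of the sedentary wild type arrays, whose SD was 1.22. Neither difference passed, at -0.53 ± 0.45 in ERRα-null muscle (limma, adjusted p = 0.659) and -0.81 ± 0.45 in wild type muscle (adjusted p = 0.418).

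The arrays highest for fat cell markers were also those highest for Pparg. Of 15 adipocyte markers, 14 were measured, and their mean was 6.96 to 7.42 in exercised ERRα-null muscle, 7.06 to 7.50 in exercised wild type muscle, 7.11 to 8.24 in sedentary ERRα-null muscle and 6.81 to 8.94 in sedentary wild type muscle. The 4 arrays with the highest means, sedentary wild type 3 and 2 and sedentary ERRα-null 3 and 1, were the 4 with Pparg between 7.51 and 8.65. On the other 8 arrays Pparg was at most 6.82. Sedentary wild type array 1 was lowest for both.

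The Pparg difference in wild type muscle took the other sign without the arrays of high Ucp1, at 0.43 (limma, adjusted p = 0.774). With the adipocyte mean as a covariate it was -0.07. Without sedentary wild type array 1 it was -1.43 and passed (adjusted p = 0.0383), and the average over genotypes was then -0.98 (adjusted p = 0.0195). Ucp1 itself had 6.24, 5.47 and 4.59 in exercised ERRα-null muscle and 5.52, 5.02 and 4.93 in exercised wild type muscle, against 7.76, 5.01 and 9.43 in sedentary ERRα-null and 4.67, 10.82 and 10.93 in sedentary wild type muscle. Of the 14 markers, only Elovl3, a fatty acid elongase of brown fat, passed for exercise averaged over genotypes, at -1.68 ± 0.26 (limma, adjusted p = 0.00261).

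**Figure D2:**
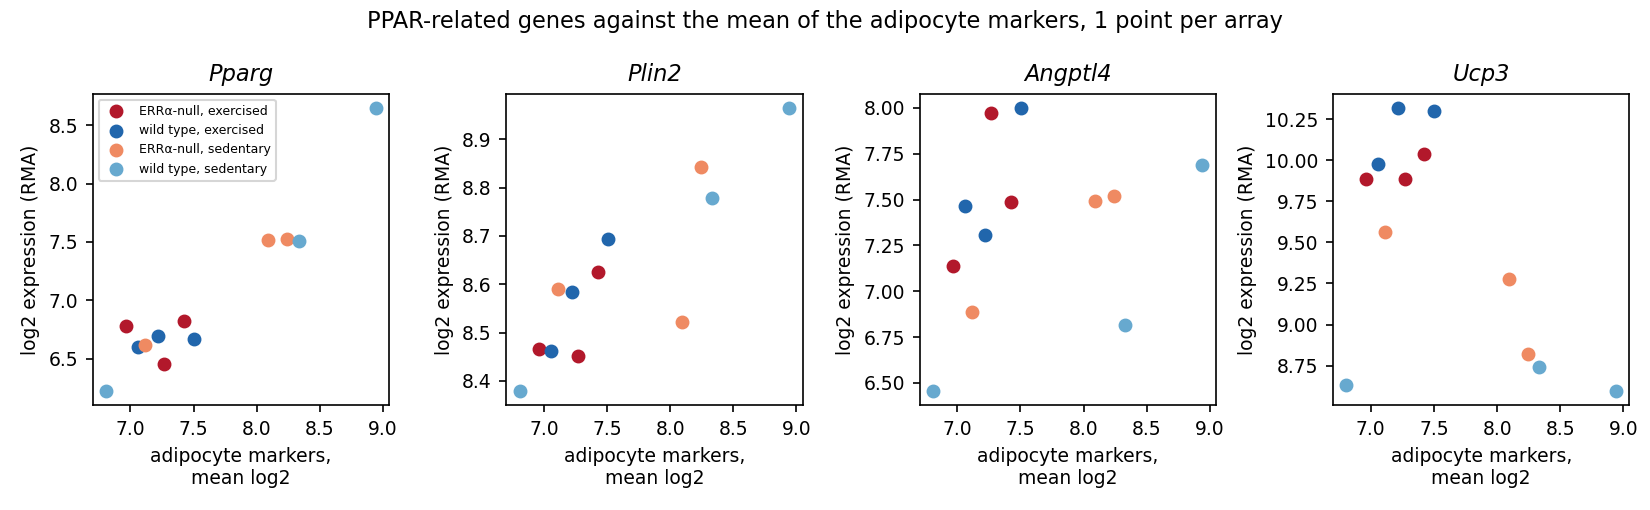
Log2 expression of Pparg, Plin2, Angptl4 and Ucp3 on the vertical axes against the mean log2 value of 14 adipocyte markers, 1 point per array, coloured by group. The 4 arrays with a marker mean above 8 are all sedentary and have the highest Pparg, while Ucp3 on sedentary wild type arrays stays between 8.59 and 8.74 across marker means of 6.81 to 8.94.

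Among the targets, Angptl4 encodes a secreted inhibitor of lipoprotein lipase. It had 7.48, 7.97 and 7.14 in exercised ERRα-null muscle, against 7.49, 6.89 and 7.52 in sedentary ERRα-null muscle. It had 8.001, 7.31 and 7.47 in exercised wild type muscle, against 6.45, 6.82 and 7.69 in sedentary wild type muscle. The groups overlapped in both genotypes, and neither difference passed, at 0.23 ± 0.31 in ERRα-null muscle (limma, adjusted p = 0.798) and 0.60 ± 0.31 in wild type muscle (adjusted p = 0.376).

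Angptl4 was the one gene that gained a call for exercise with the adipocyte mean as a covariate. It was then 1.04 ± 0.22 in wild type muscle (limma, adjusted p = 0.0235) and 0.81 ± 0.16 averaged over genotypes (adjusted p = 0.0155). Without the arrays of high Ucp1 the values were 1.14 (adjusted p = 0.252) and 0.74 (adjusted p = 0.159). The highest of the sedentary wild type values, 7.69, was on the array with the highest marker mean.

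Plin2 and Plin5 encode coats of lipid droplets, and Plin5 is known for linking droplets to mitochondria in oxidative tissues. Plin2 had 8.63, 8.45 and 8.47 in exercised ERRα-null muscle and 8.69, 8.58 and 8.46 in exercised wild type muscle, against 8.52, 8.59 and 8.84 in sedentary ERRα-null and 8.38, 8.78 and 8.97 in sedentary wild type muscle. Its exercise difference was -0.14 ± 0.14 in ERRα-null muscle and -0.13 ± 0.14 in wild type muscle (limma, adjusted p = 0.717 and 0.707). The 3 highest Plin2 values were on the 3 arrays with the highest adipocyte marker mean. With that mean as a covariate both exercise differences took the other sign and did not pass. Without the arrays of high Ucp1 the wild type difference was 0.20, while that in ERRα-null muscle kept its sign. The cause was not tested.

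The genotype differences of Plin5 were larger in size than its exercise differences, but neither kind passed the test. Their sizes were not compared by a test. It had 7.38, 7.52 and 7.37 in exercised ERRα-null muscle, against 7.70, 7.79 and 8.11 in exercised wild type muscle. It had 7.16, 7.63 and 7.45 in sedentary ERRα-null muscle, against 7.86, 7.66 and 7.61 in sedentary wild type muscle. After exercise every ERRα-null array lay below every wild type array, and at rest the groups overlapped through 1 ERRα-null array.

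The Plin5 difference between ERRα-null and wild type muscle was -0.44 ± 0.13 after exercise (limma, unadjusted p = 0.00618, adjusted p = 0.218) and -0.29 ± 0.13 at rest (unadjusted p = 0.049, adjusted p = 0.604). Averaged over states it was -0.37 ± 0.09 (unadjusted p = 0.00214, adjusted p = 0.0902). That average passed under 1 of 23 alternatives, the adipocyte mean as a covariate, at -0.39 (adjusted p = 0.0381). The exercise difference of Plin5 was 0.01 ± 0.13 in ERRα-null muscle (adjusted p = 0.987) and 0.16 ± 0.13 in wild type muscle (adjusted p = 0.622).

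None of the 9 genes passed the test for genotype. In limma's test at rest 0 were called, against 11 genes or 0.0827% of all genes tested. At an unadjusted p under 0.05 there were 2, Ucp3 and Plin5, against 8.22% of all. After exercise 0 were called, against 50 genes or 0.376% of all (23 genes with a replicate block). Here 2 had an unadjusted p under 0.05, Ppard and Plin5, against 10.4% of all. The groups did not overlap for 1 of the 9 at rest, Ucp3, against 13.4% of all genes, and for 2 after exercise, Ppard and Plin5, against 16%. Averaged over states 0 were called, against 1.43% of all. Here 3 had an unadjusted p under 0.05, Ppara, Ppard and Plin5, against 12.4% of all. The test for a genotype difference in the exercise effect called 0, against 1 gene or 0.00751% of all. In it 2 had an unadjusted p under 0.05, Ppard and Ucp3, against 5.12% of all.

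**Figure D3:**
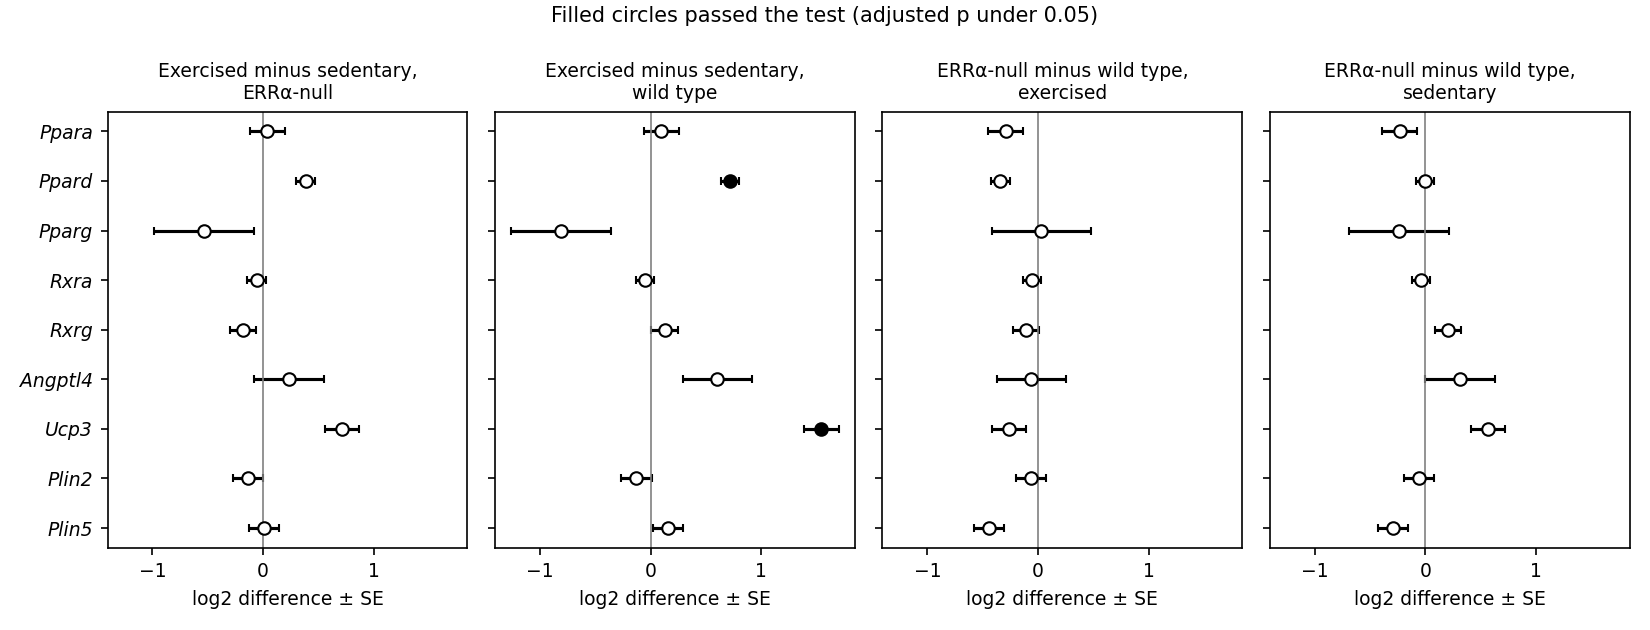
Log2 differences with their SE for the 9 genes in 4 comparisons, exercised minus sedentary in each genotype and ERRα-null minus wild type in each state. Filled circles passed the test (limma, adjusted p under 0.05), and only Ppard and Ucp3 for exercise in wild type muscle are filled.

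Genes with a profile over the 12 arrays most like that of Ppard or Ucp3 were found by the root mean square difference between profiles centred on their own means, over 12358 genes. For Ppard these were Nle1, a factor of ribosome assembly, at 0.0917 log2 units, Sorbs3, which encodes the adaptor vinexin, at 0.112, and S100a10, a partner of annexin, at 0.122. The Ppard profile itself had a root mean square of 0.309 about its mean. Nle1 averaged 7.07 ± 0.04 in exercised ERRα-null muscle, 7.33 ± 0.06 in exercised wild type muscle, 6.71 ± 0.03 in sedentary ERRα-null muscle and 6.75 ± 0.12 in sedentary wild type muscle (SD, n = 3 each). Its order of groups was that of Ppard, with the sedentary groups overlapping.

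For Ucp3 the closest profiles were those of Banp at 0.228, the interferon-inducible Ifi205 at 0.228 and Noct at 0.237, against a root mean square of 0.632 for Ucp3 itself. Noct, which encodes the circadian protein nocturnin, averaged 8.15 ± 0.18 in exercised ERRα-null muscle, 8.35 ± 0.28 in exercised wild type muscle, 7.60 ± 0.12 in sedentary ERRα-null muscle and 7.12 ± 0.05 in sedentary wild type muscle (SD, n = 3 each). As for Ucp3, sedentary ERRα-null arrays lay between the sedentary wild type arrays and the exercised arrays. The profiles of Ppard and Ucp3 differed by 0.388. These genes were picked for likeness, so it is a description with no test.

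The wider PPAR pathway was read in the same tests. Of 40 known lipid target genes of PPARs, 35 were on the array and 32 were tested. In wild type muscle 1 rose with exercise and 1 fell, against 2.22% of all genes called higher and 1.21% lower. In ERRα-null muscle 0 were called by limma beside 12 at an unadjusted p under 0.05, or 37.5%, against 13.1% of all genes. The median difference after exercise was -0.19 in ERRα-null muscle and -0.11 in wild type muscle, against -0.01 over all genes in each.

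The gene that rose was Pdk4, a kinase that shuts off pyruvate oxidation. It had 12.08, 11.76 and 11.71 in exercised ERRα-null muscle and 12.41, 12.29 and 12.19 in exercised wild type muscle, against 11.75, 11.66 and 11.52 in sedentary ERRα-null and 10.85, 10.76 and 10.88 in sedentary wild type muscle. Sedentary ERRα-null arrays lay above all sedentary wild type arrays, and exercised ERRα-null arrays lay below all exercised wild type arrays. Pdk4 rose by 1.47 ± 0.10 with exercise in wild type muscle (limma, adjusted p = 9.75e-06), against a difference of 0.21 ± 0.10 in ERRα-null muscle (adjusted p = 0.391).

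Unlike for Ppard and Ucp3, the difference between the exercise effects of Pdk4 passed, at -1.26 ± 0.14 (limma, adjusted p = 0.0121). It was -1.09 without the arrays of female profile and -1.31 without those of high Ucp1, and passed in neither. The call held in 16 of 23 alternatives, and in 7 of the 12 that left out 1 array. At rest Pdk4 differed by 0.81 ± 0.10 between ERRα-null and wild type muscle and passed (adjusted p = 0.0159). That call was lost without the arrays of high Ucp1, at 0.86 (adjusted p = 0.105), and with any of 4 single arrays left out, sedentary ERRα-null 1 or 2 and sedentary wild type 1 or 2 (highest adjusted p = 0.107).

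Ehhadh, an enzyme of peroxisomal fatty acid oxidation, was the target that fell in wild type muscle, by 0.62 ± 0.15 on the log2 scale (limma, adjusted p = 0.0450). It passed under 9 of 24 alternatives. Its highest value, 7.16, was on sedentary wild type array 1, the array with the highest liver marker mean. Leaving out that array ended the call, as did leaving out any other wild type array. The part of liver RNA was not tested. Averaged over genotypes 1 target rose and 4 fell, against 3.14% of all genes called higher and 3.43% lower. Those that fell included Hadh by 0.27 ± 0.06, Acadm by 0.23 ± 0.06 and Ehhadh by 0.49 ± 0.11, all enzymes of fatty acid oxidation (limma, adjusted p = 0.0158, 0.0307 and 0.0180). These calls held in 20, 9 and 22 of 23 alternatives, in the same order. That of Hadh was lost with the adipocyte covariate. Leaving out the arrays with the female pattern ended all 3 calls, and leaving out those of high Ucp1 ended the calls of Hadh and Acadm.

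By genotype, 2 of the 32 targets fell after exercise, against 0.286% of all genes called lower, and 1 rose at rest, Pdk4, against 0.0526% called higher. The 2 were the acyl-CoA dehydrogenases Acadvl, at -0.50 ± 0.08 in ERRα-null relative to wild type muscle, and Acadl, at -0.41 ± 0.07 (limma, adjusted p = 0.0358 and 0.0473). Acadvl had 9.57, 9.53 and 9.58 in exercised ERRα-null muscle, against 10.16, 9.98 and 10.05 in exercised wild type muscle.

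The call after exercise held in 9 of 24 alternatives for Acadvl and 5 of 24 for Acadl. Leaving out the arrays with the female pattern gave -0.50 for each (adjusted p = 0.466 for Acadvl and 0.382 for Acadl), and both calls were also lost without those of high Ucp1 (adjusted p = 0.0715 and 0.101). Leaving out any 1 exercised array ended both calls. With the replicate number as a block Acadvl did not pass (adjusted p = 0.0632). Averaged over states 4 targets fell, against 0.999% of all genes called lower, Acadvl, Acadl, Etfdh and Cpt2, by 0.47, 0.34, 0.29 and 0.32 (limma, adjusted p = 0.00385, 0.00812, 0.0285 and 0.0467). These calls held in 22, 21, 12 and 6 of 23 alternatives, in the same order. That of Cpt2 was lost with the adipocyte covariate. Leaving out the arrays with the female pattern ended all 4 calls, and leaving out those of high Ucp1 ended all but that of Acadvl.

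Of 22 lipid droplet and lipolysis genes, all tested, 1 rose with exercise in each genotype, Lpin1, against 0.383% of all genes called higher in ERRα-null muscle and 2.22% in wild type muscle. It encodes a phosphatidate phosphatase that also acts with PPARα and PGC-1α. Lpin1 had 10.97, 11.05 and 10.92 in exercised ERRα-null muscle, against 10.37, 10.28 and 10.43 in sedentary ERRα-null muscle, and 11.16, 11.25 and 11.22 in exercised wild type muscle, against 10.56, 10.51 and 10.65 in sedentary wild type muscle. It rose by 0.62 ± 0.06 in ERRα-null muscle (limma, adjusted p = 0.000899) and by 0.64 ± 0.06 in wild type muscle (adjusted p = 0.000139). The ERRα-null call was lost without the arrays of female profile, at 0.61. By genotype, Lpin1 was the 1 gene of the list called, at -0.22 ± 0.04 averaged over states (limma, adjusted p = 0.0320). All genes called lower there came to 0.999%. That genotype call held in 9 of 23 alternatives. It was lost with a replicate block, without the arrays of female profile and without those of high Ucp1.

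Averaged over genotypes 1 gene of this list rose, Lpin1, against 3.14% of all genes, and 3 fell, against 3.43%, the triglyceride synthesis genes Dgat2, Agpat2 and Gpam. Agpat2 fell by 1.70 ± 0.39 and Dgat2 by 1.22 ± 0.26 (limma, adjusted p = 0.0232 and 0.0165). The 4 arrays with the highest adipocyte marker mean had the 4 highest values of Agpat2, 8.95 to 10.35. Without the arrays of high Ucp1 the differences were -0.82 for Agpat2 and -0.76 for Dgat2, and neither passed. With the adipocyte mean as a covariate both calls held. The source of the falls was not tested. Gpam fell by 0.28 ± 0.06 (adjusted p = 0.0231), and was -0.27 without the arrays of high Ucp1, which did not pass. All 3 calls were also lost with the female-pattern arrays left out (adjusted p = 0.317 for Agpat2, 0.284 for Dgat2 and 0.0676 for Gpam), and that of Agpat2 with any of 6 single arrays left out. The median over the list after exercise was -0.20 in ERRα-null muscle and -0.26 in wild type muscle, against -0.01 over all genes in each. The list shares Plin1, Cidea, Cidec and Lipe with the adipocyte markers, and the part of fat cell RNA in that median was not tested.

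Of 28 partners and coregulators, 25 were tested. In wild type muscle 2 rose, Ppargc1a and Nrip1, and 2 fell, the retinoic acid receptor Rarb and the circadian repressor Nr1d1, against 2.22% of all genes called higher and 1.21% lower. Ppargc1a encodes PGC-1α, a coactivator of PPARs and ERRα, and Nrip1 encodes the corepressor RIP140. In ERRα-null muscle 1 rose, Ppargc1a, and 0 fell, against 0.383% and 0.255% of all genes.

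Ppargc1a had 11.38, 11.69 and 11.53 in exercised ERRα-null muscle, against 10.16, 9.80 and 9.86 in sedentary ERRα-null muscle, and 12.04, 11.80 and 12.15 in exercised wild type muscle, against 9.67, 9.44 and 9.36 in sedentary wild type muscle. It rose by 1.59 ± 0.12 in ERRα-null muscle and by 2.51 ± 0.12 in wild type muscle (limma, adjusted p = 0.000128 and 7.08e-07). Its genotype differences, -0.46 ± 0.12 after exercise and 0.45 ± 0.12 at rest, did not pass (limma, adjusted p = 0.141 and 0.266). Nrip1 rose by 0.63 ± 0.11 in wild type muscle (limma, adjusted p = 0.00678). It was 0.75 without the arrays of high Ucp1, which did not pass (adjusted p = 0.0608).

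Rarb fell by 0.70 ± 0.15 and Nr1d1 by 0.97 ± 0.23 in wild type muscle (limma, adjusted p = 0.0235 and 0.0408). Neither passed without the arrays of female profile or without those of high Ucp1. By limma 0 genes of this list passed for genotype, beside 3 after exercise and 4 at rest with an unadjusted p under 0.05, against 10.4% and 8.22% of all genes. The list's median difference after exercise was -0.01 in ERRα-null muscle and -0.06 in wild type muscle, against -0.01 over all genes in each.

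Of 7 relatives of the uncoupling proteins, 5 were tested and 0 passed for exercise in either genotype by limma. At an unadjusted p under 0.05 there were 2 in wild type muscle, Slc25a5 and Ucp1, and 0 in ERRα-null muscle. Over all genes these shares were 16.1% and 13.1%. Among sedentary wild type arrays Ucp1 was 4.67 on array 1, against 10.82 and 10.93 on arrays 2 and 3. Slc25a5, an adenine nucleotide carrier, was the 1 called for genotype, at -0.56 ± 0.10 in exercised ERRα-null relative to exercised wild type muscle (limma, adjusted p = 0.0483). All genes called lower there came to 0.286%. It passed under 5 of 24 alternatives, and not with a replicate block in the fit (adjusted p = 0.0632). Averaged over states Slc25a5 was also called, at -0.35 ± 0.07 (limma, adjusted p = 0.0363), against 0.999% of all genes called lower. That call held in 9 of 23 alternatives, and not without the arrays of female profile or those of high Ucp1. Of 6 relatives of Angptl4, 3 were tested and 0 passed in any comparison by limma. For exercise 1 had an unadjusted p under 0.05 in each genotype, against 13.1% of all genes in ERRα-null and 16.1% in wild type.

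**Figure D4:**
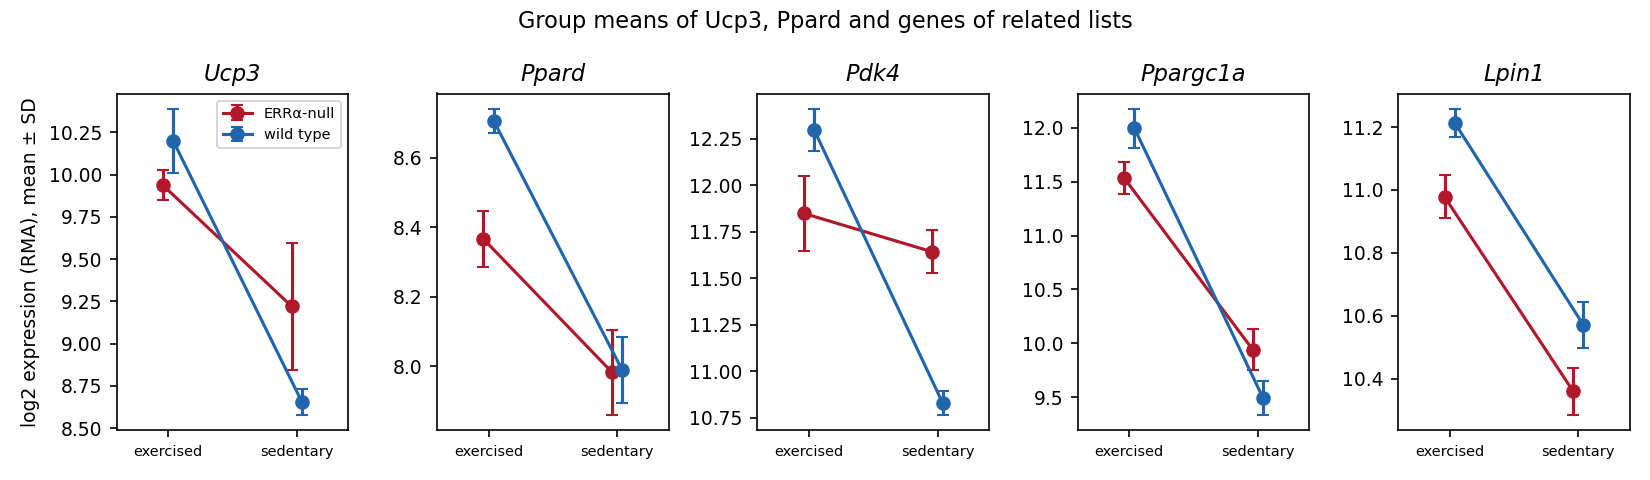
Mean log2 expression with SD (3 arrays per group) of Ucp3, Ppard, Pdk4, Ppargc1a and Lpin1, exercised on the left and sedentary on the right of each panel, ERRα-null in red and wild type in blue. The lines cross for Ucp3, Pdk4 and Ppargc1a, and the difference in slope passed the test for Pdk4 alone among the 5.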

How the data were processed

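The deposited values are log2 expression values of 41345 probesets on 12 arrays. The tools named in the submitters' processing notes are Affymetrix Expression Console, Transcriptome Analysis Console and RMA. Their versions and options, and the build, were not given in the sources used here. RMA puts all arrays on a common distribution, so differences are relative to the bulk of transcripts. Array medians were 5.15 to 5.26 and pairwise correlations 0.970 to 0.987. Arrays have no read depth, and their number limits the precision.

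Groups came from the sample titles. Replicates are biological, per the labels. The platform table gave 1 symbol to 23521 probesets, several to 1814 and none to 16010; 23328 matched RefSeq GRCm38.p6. The brightest probeset with 1 symbol stood for each of 22180 genes. The 40% with the lowest mean were left out. Means of 4 groups were fitted with limma 3.58.1 in R 4.3.3, with an intensity trend and Benjamini-Hochberg adjustment, and 7 comparisons were made. The script was tested on simulated data.

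The genes, gene lists and alternatives were chosen with earlier results of these data known. Named are the 10 genes of interest, Esrra, markers, the up to 4 called genes of each list with the smallest p in each comparison, and the 3 most similar profiles. Alternatives covered filters, scaling, array weights, the variance prior, probeset choice, the arrays fitted, a replicate block, the adipocyte covariate, and omission of arrays. The labels tie replicate numbers to no shared source. Of 18 same-numbered pairs of arrays, 9 deviated together with a correlation over 0.1 (median 0.092), against 10 of 36 others (median -0.003). Exercised ERRα-null against exercised wild type was the comparison in which all 3 pairs did (0.312, 0.207 and 0.174), so blocked values stand beside its results where they change a call.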

Additional observations from a re-analysis of the deposited data

Results flagged for a closer look

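The exercise effect on Pdk4 differed between the genotypes with all arrays in the fit. The effect in ERRα-null muscle minus that in wild type muscle was -1.26 on the log2 scale. It passed the test of the difference itself (limma, adjusted p = 0.0121). That call held in 16 of 23 alternatives, and in 7 of the 12 that left out 1 array. It was lost without the arrays of female profile and without those of high Ucp1. The ERRα-null arrays of Pdk4 also lay below all wild type arrays after exercise and above them all at rest.

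Ppargc1a showed the same crossing of the arrays, with a difference of -0.91 between the exercise effects, which did not pass (limma, adjusted p = 0.329).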

How the results depend on the processing

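With 3 arrays per group, small differences could not be told from the spread between arrays. The calls of Ppard and Ucp3 for exercise in wild type muscle and averaged over genotypes held under every alternative run, and no call of the 9 genes changed sign. Signs turned only for differences that had not passed, and the causes were not tested. Over all genes, calls for exercise in wild type numbered 457 (232 with only the arrays compared, 230 without the arrays of female profile, 237 without those of high Ucp1, 221 to 502 with 1 array left out). For exercise in ERRα-null muscle they numbered 85 (54 with the adipocyte covariate, 268 with array weights, 54 with no filter, 16 without female profile, 26 without high Ucp1, 32 to 109 with 1 left out). For genotype at rest they numbered 11 (18 with the covariate, 53 with weights, 4 with only the arrays compared, 4 without female profile, 1 to 11 with 1 left out). For genotype after exercise they numbered 50 (161 with weights, 33 and 95 with the lowest 20% and 60% left out, 23 with no filter, 17 with no trend, 5 with only the arrays compared, 5 without female profile, 1 without high Ucp1, 2 to 105 with 1 left out). The difference between exercise effects gave 1 call (0 without high Ucp1, 0 to 6 with 1 left out). Exercise averaged over genotypes gave 874 (172 without female profile, 384 without high Ucp1, 543 to 933 with 1 left out), and genotype averaged over states 190 (363 with weights, 6 without female profile, 47 without high Ucp1, 79 to 251 with 1 left out).

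With the replicate number as a block, 1 of the 9 genes was called for exercise in ERRα-null muscle, Ucp3 (limma, adjusted p = 0.0402), and calls over all genes were 3 for genotype at rest and 23 after exercise. Of the calls named in the text, the block ended those of Acadvl and Slc25a5 after exercise (adjusted p = 0.0632 each) and of Nr1d1 for exercise in wild type muscle (adjusted p = 0.0750). The block also ended that of Lpin1 for genotype averaged over states. Array weights gave 2 of the 9 in ERRα-null muscle, median centring 1, leaving out the lowest 60% 1, and leaving out 1 array 0 to 1. The adipocyte covariate gave 1 for genotype averaged over states, Plin5.

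Reversed signs follow, all log2. With the covariate, exercise differences were -0.042 in wild type, -0.072 in ERRα-null and -0.057 on average for Ppara, 0.061, 0.010 and 0.036 for Plin2, 0.042 in ERRα-null for Pparg, 0.030 on average for Rxrg, and -0.095 in ERRα-null and -0.034 on average for Plin5; the average genotype difference of Pparg was 0.017. With weights, Ppard and Rxra were 0.044 and 0.014 for genotype at rest and Plin5 -0.094 for exercise in ERRα-null. With median centring, Ppard was 0.0095 for genotype at rest, Rxra 0.0044 for exercise in wild type and Rxrg 0.020 for exercise on average. Without female profile, Ppara was -0.31 and Plin5 -0.032 for exercise in ERRα-null, Ppara -0.12 and Rxrg 0.046 on average, and Plin2 0.043 for the difference between exercise effects. Without high Ucp1, exercise in wild type gave -0.15 for Ppara, 0.43 for Pparg and 0.20 for Plin2, and on average -0.030 for Ppara, 0.026 for Pparg, 0.046 for Rxrg and 0.080 for Plin2. Genotype at rest gave 0.096 for Ppard, 0.85 for Pparg and 0.18 for Plin2, and on average 0.44 for Pparg, -0.012 for Rxrg and 0.056 for Plin2. The difference between exercise effects gave 0.24 for Ppara, -0.82 for Pparg, 0.099 for Rxra and 0.020 for Plin5.

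With 1 array left out, signs turned within these ranges. For exercise in wild type they were -0.036 to 0.22 for Ppara and -0.29 to 0.0013 for Plin2, in ERRα-null -0.12 to 0.21 for Ppara and -0.12 to 0.12 for Plin5, and on average -0.011 to 0.15 for Ppara and -0.075 to 0.039 for Rxrg. For genotype at rest they were -0.066 to 0.057 for Ppard, -0.86 to 0.35 for Pparg, -0.098 to 0.037 for Rxra and -0.22 to 0.073 for Plin2, and after exercise -0.038 to 0.15 for Pparg and -0.28 to 0.15 for Angptl4. For genotype on average they were -0.42 to 0.19 for Pparg, -0.019 to 0.095 for Rxrg, -0.0069 to 0.30 for Angptl4 and -0.14 to 0.0040 for Plin2. For the difference between exercise effects they were -0.21 to 0.11 for Ppara, -0.32 to 0.89 for Pparg, -0.090 to 0.045 for Rxra and -0.14 to 0.16 for Plin2.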
